A study of Homo sapiens with 6 samples.

Results

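The genes described here make, cut or bind hyaluronan, and they are led by CEMIP, also known as KIAA1199. The list holds 9 genes, of which 6 could be named on the arrays (CEMIP, CEMIP2, HYAL2, HAS2, HAS3 and CD44) out of 18417 genes represented. HAS1, HYAL1 and HYAL3 had no probe set under their current or older names in the annotation used here and were not analysed. CEMIP was chosen by its much lower signal in both derived cell lines on these same arrays, so its values are a description and were not tested. The other genes were listed by function. Each gene is given by its single-symbol probe set with the highest mean over the 6 arrays, and each of the 6 genes had 1 such probe set.

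Gene expression was measured on 6 Affymetrix Gene ST arrays, 2 for each of 3 near isogenic human cell lines. BJ are primary foreskin fibroblasts, grown without selection. BJEL cells came from BJ and carry hTERT, which extends telomeres, together with the SV40 early region that encodes the large T and small t antigens, and they were kept in G-418 and hygromycin. BJELM cells came from BJEL by retroviral transfer of pBabe-MYC-ER, a MYC fusion with an estrogen receptor domain, and were kept in G-418, hygromycin, puromycin and, without interruption, 4-hydroxytamoxyfen (4-OHT), which activates the fusion. The selection drugs, 4-OHT and the introduced genes therefore cannot be told apart, and whether each line is 1 clone is not given in the sources used here. The replicates are described as biological, and precision is limited by having 2 arrays a line. BJEL against BJ and BJELM against BJ share the BJ arrays, so these comparisons are not independent.

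Hyaluronan is a long glycosaminoglycan of alternating glucuronic acid and N-acetylglucosamine, and it fills the matrix around dermal fibroblasts. The synthases HAS1, HAS2 and HAS3 build it at the plasma membrane from UDP-sugars and push the growing chain out of the cell. CEMIP and its membrane-bound relative CEMIP2 have been reported to take part in its breakdown. The HYAL enzymes cleave it at the cell surface and in lysosomes, and CD44 is its main surface receptor.

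Array medians lay between 6.37 and 6.46 on the log2 scale, and the Pearson correlation across genes was 0.992 to 0.995 within a cell line and 0.943 to 0.981 between lines, with genes not being independent replicates. TERT was higher in both derived lines than in BJ by 3.02 ± 0.11 and 2.99 ± 0.11 (SE, limma adjusted p = 0.000156 and adjusted p = 8.44e-05). MYC had signals of 9.47 and 9.61 in BJ, 10.22 and 10.12 in BJEL, and 9.57 and 8.90 on the arrays labelled BJELM. The MYC signal thus stood at -0.93 in BJELM against BJEL (limma adjusted p = 0.0444), under the fold minimum, although BJELM cells carry MYC-ER. Whether the MYC probe set reads the introduced fusion was not tested, and directions given below for BJEL and BJELM rest on the labels. A call here means a limma adjusted p under 0.05, over all genes, together with a change of at least 2-fold. Of 11 fibroblast markers 8 were called lower in BJEL than in BJ, where 2.29% of all genes were, and 10 lower on the arrays labelled BJELM than in BJ, where 4.7% of all genes were. Vimentin was not called in either comparison. The mean signal over the fibroblast markers was 10.95 to 11.16 on the BJ arrays, 9.004 to 9.09 on the BJEL arrays and 8.61 to 9.20 on the arrays labelled BJELM. None of the 18 measured epithelial, endothelial, leukocyte and melanocyte markers was called in any comparison by limma, and 1 to 3 a comparison had an unadjusted p under 0.05. The 12 that are not epithelial all lay below the median gene. Of the 6 epithelial markers 2 lay at or above it, KRT8 at 7.79 and KRT18 at 11.36 on average. KRT18 stood at -0.97 in BJEL against BJ (limma adjusted p = 0.04), under the fold minimum. In bulk RNA, fewer expressing cells and less RNA per cell cannot be told apart. The part of the fibroblast marker shift in the results below was not tested.

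The CEMIP gene is shown by the 250 bases before its RefSeq start, chr15:80779120-80779369 on the forward strand of GRCh38.p14, since among the 6 measured members it has the widest range over the 3 lines. Capitals mark a TATA box (TATAAA) and GC boxes (GGGCGG), each searched on both strands.

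CEMIP: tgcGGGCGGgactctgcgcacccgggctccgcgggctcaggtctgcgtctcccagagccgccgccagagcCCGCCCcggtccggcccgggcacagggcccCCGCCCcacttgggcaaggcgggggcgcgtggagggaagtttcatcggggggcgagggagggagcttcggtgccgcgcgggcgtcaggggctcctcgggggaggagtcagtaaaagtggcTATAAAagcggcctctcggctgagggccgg

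The CEMIP window held 1 TATA box, whose first base lies 30 bases before the start, and 3 GC boxes. Over 35093 RefSeq windows of this length, 10.7% held TATAAA and 42.6% held GGGCGG on either strand. The window also had 28 CpG dinucleotides and a GC content of 74.4%, against medians of 11 and 58% over all windows. Neither CACGTG, the E-box bound by MYC, nor TGANTCA, the AP-1 element, was found in it, and these are held by 6.34% and 6.57% of the windows. The same length before the start of CEMIP2 held 1 GC box, no TATA box and no E-box or AP-1 element, with 25 CpG dinucleotides. These matches describe the letters of the windows and are not evidence of binding.

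CEMIP, which binds hyaluronan and is needed for its depolymerization by skin fibroblasts, was high in BJ and low in both derived lines. Its log2 signal was 11.96 and 11.73 on the BJ arrays, 6.78 and 6.58 on the BJEL arrays, and 5.37 and 5.31 on the arrays labelled BJELM. The 3 lines did not overlap, and the step from BJ to BJEL was by far the wider one. BJ averaged 11.85 ± 0.16, BJEL 6.68 ± 0.14 and the arrays labelled BJELM 5.34 ± 0.042 (SD, n = 2). Against BJ, CEMIP stood at -5.17 ± 0.12 in BJEL (SE), a 36.1-fold lower signal, and at -6.51 ± 0.12 in BJELM, 91.4-fold lower. Between the derived lines it was -1.34 ± 0.12 in BJELM against BJEL, or 2.53-fold. Among the 18417 genes, ordered from the most negative difference, CEMIP stood at rank 6 for BJEL against BJ, rank 2 for BJELM against BJ and rank 193 for BJELM against BJEL. The BJELM signals lay below the median of their arrays. With any 1 array left out, the CEMIP difference ranged from -5.29 to -5.06 for BJEL against BJ, from -6.63 to -6.40 for BJELM against BJ and from -1.44 to -1.24 for BJELM against BJEL.

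**Figure D1:**
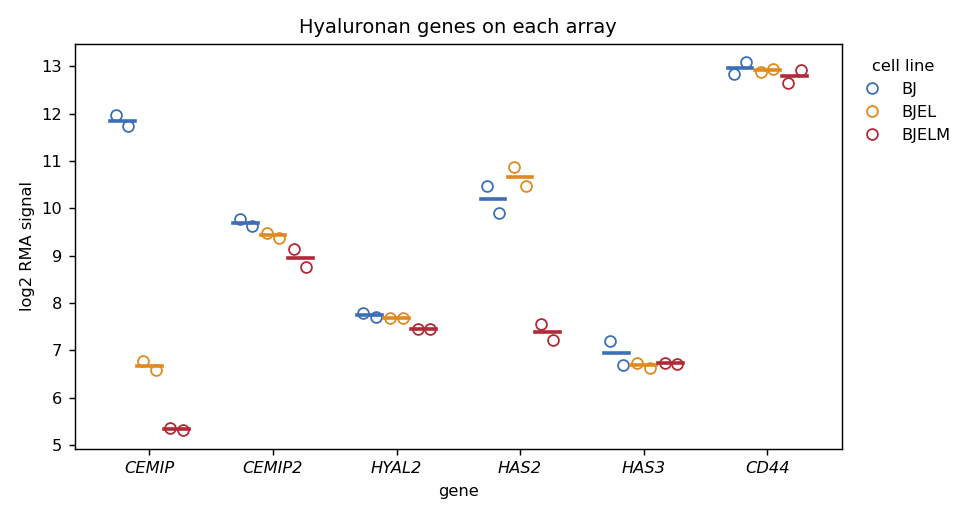
Log2 RMA signal (vertical axis) of the 6 measured hyaluronan genes (horizontal axis), with each array as an open circle, the mean over 2 arrays as a bar and a color for each line. CEMIP averages 11.85 in BJ, 6.68 in BJEL and 5.34 in BJELM, HAS2 stands apart in BJELM alone at 7.38, and CD44 stays between 12.65 and 13.08 on every array.

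CEMIP2, also known as TMEM2, encodes a transmembrane protein that has been reported to degrade hyaluronan, and its signal moved far less than that of CEMIP. It was 9.77 and 9.61 in BJ, 9.48 and 9.37 in BJEL, and 9.15 and 8.75 on the arrays labelled BJELM. The lines did not overlap and the order was the same as for CEMIP. Here and for the other genes, non-overlap is a weak criterion with 2 arrays a line, and its share over all genes is not given. PKHD1L1, which differed by only 0.018 in BJEL against BJ, had no overlap there either. BJEL and BJ were neighbors that did not differ past the test, at -0.27 ± 0.15 (SE, adjusted p = 0.288, 95% interval -0.62 to 0.092). Between BJELM and BJ the difference was -0.74 ± 0.15 (adjusted p = 0.0125, 1.67-fold), under the 2-fold minimum used for a call. Without BJ replicate 1 it was -0.66 and no longer had an adjusted p under 0.05 (adjusted p = 0.0778).

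HYAL2, a hyaluronidase anchored at the cell surface, kept a nearly level signal. It was 7.79 and 7.70 in BJ, 7.69 and 7.69 in BJEL, and 7.44 on both arrays labelled BJELM. The latter were the lowest pair without overlap, by a small margin. The difference from BJ was -0.055 ± 0.081 in BJEL (adjusted p = 0.714, 95% interval -0.25 to 0.14) and -0.30 ± 0.081 in BJELM (adjusted p = 0.0372, 1.23-fold). With any 1 array left out, the latter ranged from -0.35 to -0.26 and no longer had an adjusted p under 0.05. That includes the fits without a BJEL array, where the difference is unchanged and only the test differs. BJELM and BJEL did not differ past the test (-0.25, adjusted p = 0.12).

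HAS2, the main hyaluronan synthase of fibroblasts, did not follow CEMIP at the first step. Its signal was 10.47 and 9.91 in BJ, 10.87 and 10.47 in BJEL, and 7.55 and 7.22 on the arrays labelled BJELM. Both BJEL arrays were level with or above the higher BJ array, and both BJELM arrays lay far below all others. BJ averaged 10.19 ± 0.40, BJEL 10.67 ± 0.28 and BJELM 7.38 ± 0.23 (SD, n = 2). BJEL stood 0.48 ± 0.23 above BJ (SE, adjusted p = 0.223, 95% interval -0.080 to 1.04), which did not pass. On the arrays labelled BJELM, HAS2 fell by 3.28 on the log2 scale against BJEL (SE 0.23, adjusted p = 0.0019, 9.74-fold) and fell by 2.80 against BJ (SE 0.23, adjusted p = 0.000637, 6.97-fold). With any 1 array left out, the difference from BJEL was -3.48 to -3.09 (adjusted p = 0.00619 to adjusted p = 0.0169) and that from BJ -3.08 to -2.52 (adjusted p = 0.00207 to adjusted p = 0.00451). In order from the most negative difference, HAS2 stood at rank 27 of all genes for BJELM against BJEL and rank 78 for BJELM against BJ.

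HAS3, another synthase of the same family, was below the median gene on average and did not pass in any comparison. Its signal was 7.20 and 6.68 in BJ, 6.73 and 6.63 in BJEL, and 6.73 and 6.72 on the arrays labelled BJELM, so that only BJ replicate 1 stood above the rest. The differences from BJ were -0.26 ± 0.17 in BJEL (adjusted p = 0.36, 95% interval -0.67 to 0.15) and -0.22 ± 0.17 in BJELM (adjusted p = 0.438, 95% interval -0.63 to 0.19). BJELM and BJEL differed by 0.045 ± 0.17 (adjusted p = 0.909).

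CD44, the receptor, was bright on all arrays. Its signal was 12.83 and 13.08 in BJ, 12.88 and 12.95 in BJEL, and 12.65 and 12.92 on the arrays labelled BJELM, and all 3 lines overlapped. The difference was -0.039 ± 0.13 in BJEL against BJ (adjusted p = 0.89, 95% interval -0.36 to 0.28), -0.17 ± 0.13 in BJELM against BJ (adjusted p = 0.45, 95% interval -0.49 to 0.15) and -0.13 ± 0.13 in BJELM against BJEL (adjusted p = 0.618). These intervals lie inside a 2-fold change, and the probe set does not separate the splice forms of CD44.

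In BJEL against BJ, 0 of the 5 members other than CEMIP were called (0 at an unadjusted p under 0.05 and 0 by the methods' t-test), where 5.18% of all genes were. In BJELM against BJ it was 1 of 5, with 8.79% of all genes called, and in BJELM against BJEL also 1 of 5, with 2.68% of all genes called. HAS2 was the called gene in both, where 4.7% and 1.76% of all genes were called lower and 4.09% and 0.923% higher. In BJEL against BJ the shares of all genes were 2.29% lower and 2.89% higher. The median difference of the 5 genes was -0.055, -0.30 and -0.25 in these comparisons, against -0.017, 0.011 and 0.029 over all genes. CEMIP was thus lower at both steps, with differences of -5.17 and -1.34, and HAS2 only at the second, with 0.48 and -3.28. CEMIP was chosen for its low signal in both derived lines, so its wide first step follows from that choice. At 6.68 in BJEL it was already below the median gene of 7.26. That contrast between the genes was not tested.

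**Figure D2:**
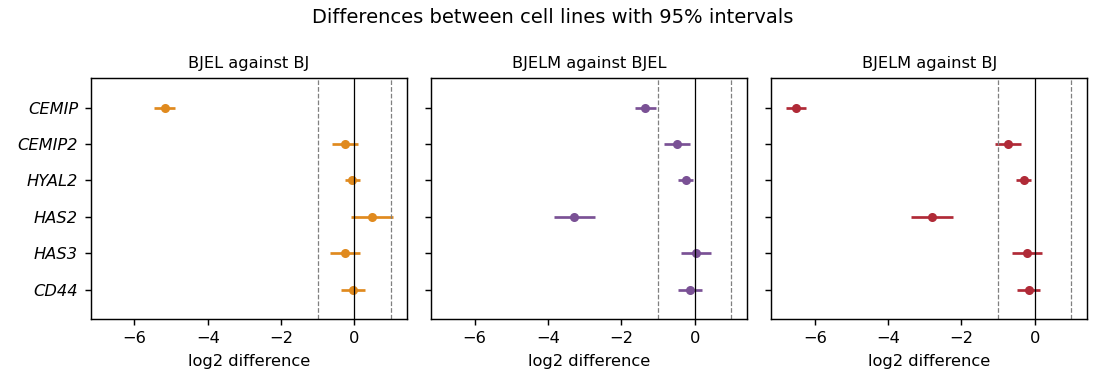
Log2 differences (horizontal axis) of the 6 hyaluronan genes (vertical axis) between the cell lines named above each panel, with 95% intervals from the limma fit as lines and dashed lines at a 2-fold change. CEMIP is at -5.17 in BJEL against BJ, HAS2 at -3.28 in BJELM against BJEL, and the points of the other 4 genes stay inside the dashed lines in every panel.

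The rest of the pathway was read from a further 46 genes, 40 of them measured. In BJEL against BJ 1 rose and 2 fell, or 7.5% against 5.18% of all genes. In BJELM against BJ 1 rose and 7 fell, or 20% against 8.79% of all genes, and in BJELM against BJEL 1 fell, or 2.5% against 2.68%. The medians were -0.11, -0.06 and -0.016. Of the 40 genes 18 were at or above the median gene. With some arrays left out, fewer of these genes were called in BJEL against BJ and in BJELM against BJ. In BJEL against BJ and in BJELM against BJEL the count could also rise. Such a fit leaves 1 array in a line, and the share of all genes called in it is not given here. These shifts are therefore not read as a trait of the hyaluronan genes.

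The UDP-sugar enzymes, which supply the substrates of the synthases, had small and divided differences. Comparing BJELM with BJ, and also with BJEL, all 5 measured ones had an adjusted p under 0.05, which 28.2% and 10.8% of all genes had. With any 1 array left out, each of them kept it against BJ. Against BJEL, UGP2, UGDH and UAP1 lost it whichever array was left out. That includes the fits without a BJ array, where these differences are unchanged and only the test differs. GFPT1 lost it there without BJEL replicate 2, and GNPNAT1 kept it only without BJ replicate 1 or 2. UGP2, UGDH and GFPT1 were the lower ones and GNPNAT1 and UAP1 the higher ones in both. GFPT1, the first enzyme of hexosamine synthesis, was at 11.11 and 11.12 in BJ, 10.74 and 10.86 in BJEL, and 10.16 and 10.07 on the arrays labelled BJELM. It fell by 1.00 in BJELM against BJ (SE 0.088, adjusted p = 0.000754). UAP1, which makes UDP-N-acetylglucosamine, was at 10.38 and 10.42 in BJ, 11.02 and 11.04 in BJEL, and 11.34 and 11.50 in BJELM, and it rose by 1.02 ± 0.091 (adjusted p = 0.000792). Both genes moved in 1 direction over the 3 lines without overlap, and both lie at the fold minimum. GFPT1 came just under it without BJ replicate 2 and was at -0.96 without BJELM replicate 2, and UAP1 was at 0.997 without BJ replicate 1 and at 0.94 without BJELM replicate 2. GFPT1 was also under it with quantile normalization (-0.99) and median centring (-0.96). UGDH, which makes UDP-glucuronic acid, was -0.52 ± 0.080 in BJELM against BJ (adjusted p = 0.00504) and -0.40 ± 0.080 against BJEL (adjusted p = 0.0311).

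Among 7 other receptors, TLR4 had the widest differences. TLR4 is an innate immune receptor that has also been reported to respond to hyaluronan fragments. Its signal was 9.15 and 8.93 in BJ, 7.34 and 6.83 in BJEL, and 5.73 and 5.52 on the arrays labelled BJELM, with no overlap between lines. It fell in all 3 comparisons, with differences of -1.96 ± 0.19 in BJEL against BJ (adjusted p = 0.00192), -3.41 ± 0.19 in BJELM against BJ (adjusted p = 0.000208) and -1.46 ± 0.19 in BJELM against BJEL (adjusted p = 0.00829). HMMR, a hyaluronan-binding protein that also acts on the mitotic spindle, went the other way. It was at 8.10 and 8.44 in BJ, 9.51 and 9.57 in BJEL, and 9.39 and 9.11 in BJELM. It rose in BJEL by 1.27 ± 0.15 (adjusted p = 0.0035) and stood 0.98 ± 0.15 above BJ in BJELM (adjusted p = 0.00476), under the fold minimum. Without BJ replicate 2 or BJELM replicate 2, the latter was 1.15 and 1.12 and was called, as it was with median centring (1.02, adjusted p = 0.00336). LAYN, a membrane protein that binds hyaluronan, has 2 single-symbol probe sets, of which only the one with the higher mean was read here. It was at 10.94 and 10.76 in BJ, 10.15 and 10.28 in BJEL, and 9.86 and 9.78 in BJELM. It fell by 1.03 in BJELM against BJ (SE 0.10, adjusted p = 0.0011). That call was lost on the fold minimum without BJ replicate 1 (-0.94) or BJELM replicate 2 (-0.99), and with median centring (-0.99). The lymphatic and scavenger receptors LYVE1, STAB1 and STAB2 and the receptor TLR2 were not called in any comparison.

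Of 15 matrix proteins that bind hyaluronan, 1 was called lower in BJEL than in BJ (2.29% of all genes were) and 3 in BJELM than in BJ (4.7% of all genes were). VCAN encodes versican, a large proteoglycan that hyaluronan holds in the matrix. Its signal was 7.38 and 6.24 in BJ, 5.09 and 5.33 in BJEL, and 5.52 and 5.30 in BJELM. The BJ arrays were far apart, though both lay above all others. VCAN fell by 1.60 in BJEL (SE 0.35, adjusted p = 0.0272) and by 1.40 in BJELM (SE 0.35, adjusted p = 0.0279), each against BJ. The first difference was -1.03 without BJ replicate 1, and its call was lost when BJEL replicate 1 (-1.47, adjusted p = 0.139) or replicate 2 (-1.72, adjusted p = 0.083) was left out. The second was lost in 5 of 6 fits with 1 array left out, and it was -0.83 without BJ replicate 1. Among these are the fits without a BJEL array, where the difference is unchanged at -1.40 and only the test differs. HAPLN1, a link protein that fixes proteoglycans to hyaluronan, was at 6.37 and 5.11 in BJ and between 4.30 and 4.49 elsewhere. Its call in BJELM against BJ (-1.30 ± 0.37, adjusted p = 0.0453) was also lost in 5 of 6 such fits. Without a BJEL array the difference was again unchanged, and without BJ replicate 1 it was -0.67. In BJEL against BJ it was not called (-1.36, adjusted p = 0.0552), and it was called without BJ replicate 2 (adjusted p = 0.00258) and under 3 other alternatives, the replicate block (0.00735), median centring (0.0394) and an intensity trend with a robust prior (0.0363). HAPLN3, of the same family, was at 7.57 and 7.36 in BJ, 6.71 and 6.39 in BJEL, and 6.69 and 6.22 in BJELM. It fell by 1.01 in BJELM against BJ (SE 0.19, adjusted p = 0.0107). Leaving out BJ replicate 1 gave -0.90 (adjusted p = 0.0676) and leaving out BJELM replicate 2 gave -0.77, and neither was a call, nor was -0.97 with median centring.

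Proteins induced with inflammation that bind or crosslink hyaluronan had wide spreads within BJELM. PTX3 was at 9.84 and 10.05 in BJ, 9.13 and 9.10 in BJEL, and 9.76 and 7.54 on the arrays labelled BJELM. TNFAIP6, which transfers heavy chains onto hyaluronan, was at 6.84 and 6.95 in BJ, 7.67 and 6.93 in BJEL, and 8.29 and 7.28 in BJELM. Neither passed (adjusted p = 0.209 and adjusted p = 0.137 for BJELM against BJ), and each was called there with 1 of the 6 arrays left out. UGDH, PTX3 and TNFAIP6 are given with values outside the rule for named genes, after their values were seen.

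Among 7 measured partners of CD44, 1 was called lower in BJELM than in BJ, where 4.7% of all genes were, and 0 were called in the other comparisons by limma (4 and 2 at an unadjusted p under 0.05). MMP14, a membrane metalloprotease that can shed CD44, was at 10.44 and 10.21 in BJ, 9.50 and 9.29 in BJEL, and 9.14 and 8.65 on the arrays labelled BJELM. It stood at -0.93 ± 0.18 in BJEL against BJ (adjusted p = 0.0192), under the fold minimum, and fell by 1.43 in BJELM against BJ (SE 0.18, adjusted p = 0.00252). Without BJ replicate 2 or BJEL replicate 1 the first difference reached the size for a 2-fold change (-1.04 each), with adjusted p = 0.0517 and adjusted p = 0.0688. With quantile normalization it was called (-1.01, adjusted p = 0.00661). The cytoskeletal linkers RDX and MSN, the linker-like tumor suppressor NF2 and the sheddases ADAM10 and ADAM17 were not called in any comparison.

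No call was made among the lysosomal exoglycosidases or the other relatives of the cutting enzymes. HEXA, a subunit of the hexosaminidases, was at 9.36 and 9.05 in BJ, 9.45 and 9.07 in BJEL, and 9.19 and 8.81 in BJELM. GUSB, the beta-glucuronidase, differed by 0.45 ± 0.13 in BJEL against BJ (adjusted p = 0.0688), and since it shares sequence with pseudogenes its probe set may also read these. For HYAL4, SPAM1, PKHD1 and PKHD1L1, a pair of hyaluronidase genes and a pair that share the G8 domain with CEMIP, the differences ran from -0.052 to 0.018 over the 3 comparisons, and 0 had an unadjusted p under 0.05 in limma. SPAM1 averaged 4.66 and PKHD1 4.71, well below the median gene of 7.26.

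**Figure D3:**
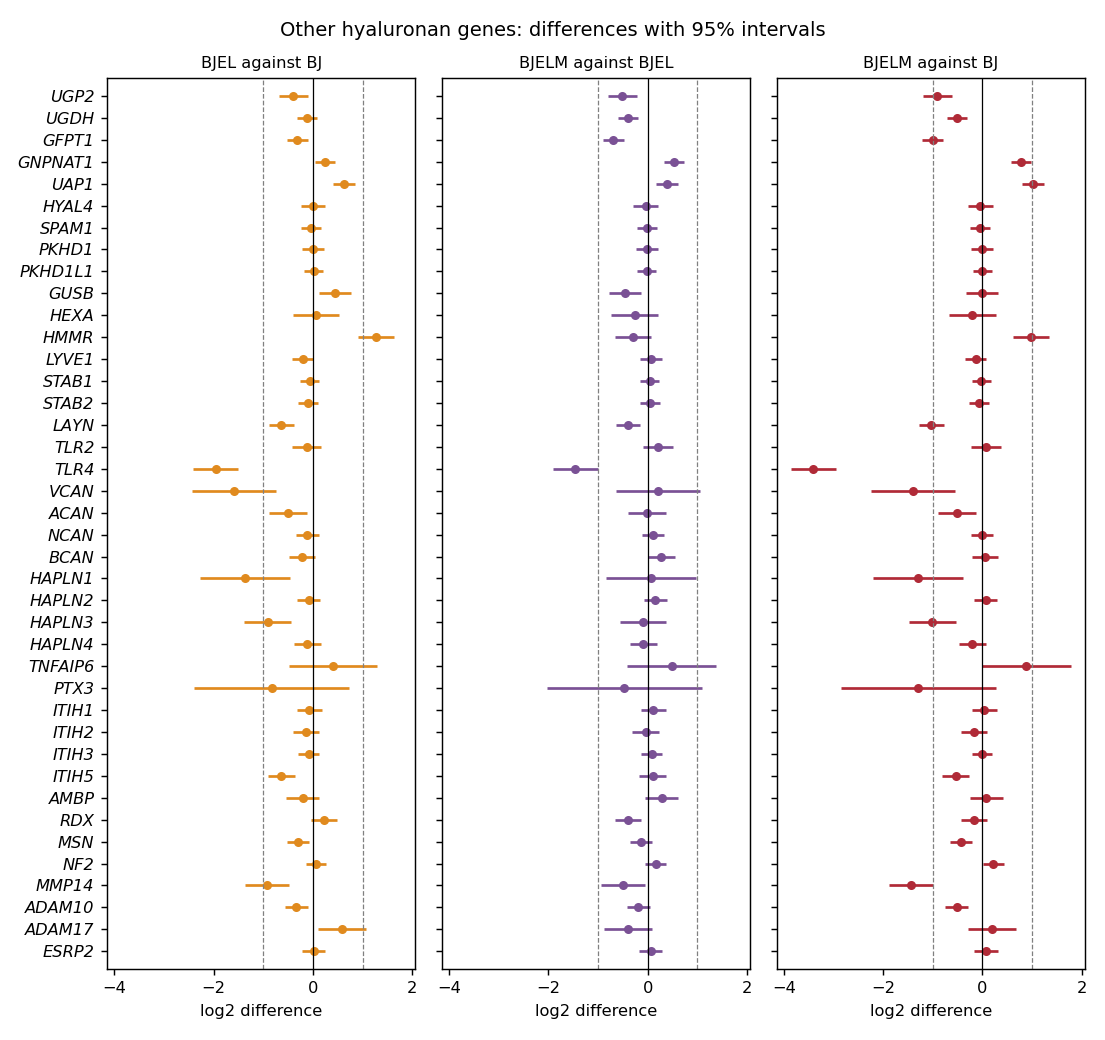
Log2 differences (horizontal axis) of the 40 other hyaluronan genes (vertical axis, from the UDP-sugar enzymes at the top to the CD44 partners at the bottom) between the lines named above each panel, with 95% intervals as lines and dashed lines at a 2-fold change. TLR4 lies left of the dashed line in every panel, at -3.41 in BJELM against BJ, and HMMR is right of it at 1.27 in BJEL against BJ.

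The profile of CEMIP was compared with that of every other gene by the root mean square difference of log2 signals over the 6 arrays, each gene centred on its own mean. The nearest gene was CRYAB, a small heat shock protein, at 0.239 (Pearson r = 0.996). It was followed by SULF1, an extracellular heparan sulfate sulfatase (0.324, r = 0.998), ALDH1A1, which makes retinoic acid (0.600, r = 0.981), SLC38A11, an amino acid transporter family member (0.621, r = 0.98), STMN2, a microtubule regulator (0.627, r = 0.98), and TNFRSF11B, the decoy receptor osteoprotegerin (0.650, r = 0.994). These correlations cover 6 arrays that form 3 groups and are descriptions with no test. CRYAB was at 11.14 and 11.14 in BJ, 5.61 and 5.75 in BJEL, and 4.72 and 4.91 on the arrays labelled BJELM. TNFRSF11B was at 12.22 and 12.29 in BJ, 8.56 and 8.47 in BJEL, and 7.21 and 6.75 in BJELM. CEMIP, CRYAB, SULF1 and TNFRSF11B had a further lower level from BJEL to BJELM, with differences of -1.34, -0.87, -1.22 and -1.54. ALDH1A1, SLC38A11 and STMN2 were at the low end of the table in both derived lines, with differences of -0.035, -0.035 and -0.09 between these.

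**Figure D4:**
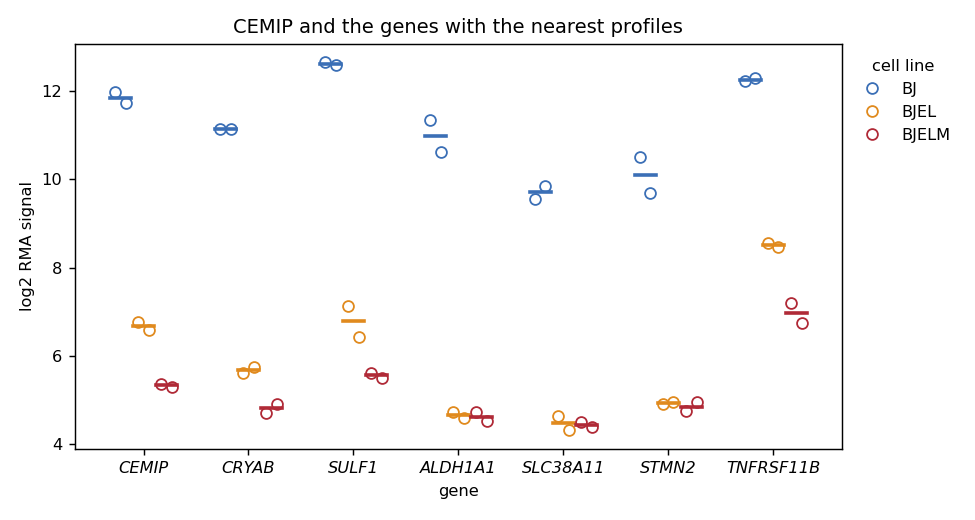
Log2 RMA signal (vertical axis) of CEMIP and the 6 genes nearest to it in profile (horizontal axis, nearest first), with single arrays as open circles, means of 2 arrays as bars and colors for BJ, BJEL and BJELM. Each gene is lower in both derived lines than in BJ, which follows from the choice by nearness to CEMIP. The step from BJEL to BJELM is seen in CEMIP, CRYAB, SULF1 and TNFRSF11B.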

How the data were processed

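The deposited values are log2 signals, which the authors obtained by running RMA on the 6 scans together (Expression Console 1.3.1, as the submitters name it). This step corrects background, brings the arrays to 1 distribution and summarizes each probe set. Each gene is read by its own probes, so signals of different genes are not strictly comparable. A place above or below the median gene is therefore only a rough guide to level. The table holds 33297 probe sets. Names came from an annotation table, where 19460 probe sets have 1 symbol, 1754 several and 12083 are not listed. Symbols were updated through RefSeq (GRCh38.p14), where 18389 of 18417 genes matched by Entrez ID. The build of the array annotation is not given in the sources used here, so no gene coordinates were taken from it.

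A linear model with a mean per cell line was fitted over the 6 arrays (limma 3.58.1, R 4.3.3), with moderated two-sided tests and Benjamini-Hochberg adjustment over 18417 genes. The residual degrees of freedom were 3, to which the prior added 3.13. The study's modified t-test could not be rebuilt, and its plain form served as an alternative (the methods' t-test). On simulated arrays with changes of 1.2 on the log2 scale, 81% of changed genes were recovered in the run for BJEL against BJ. It was 68% in the run for BJELM against BJ and 82% in that for the derived lines, each among 18417 genes. Every run drew the 6 arrays from 1 mean per gene with independent noise, so these shares differ by the random draws. They do not show that 1 comparison detects more than another, and they leave out the correlation by replicate number. The members and gene lists were chosen with earlier results of these data known. Named genes were the members, the called genes of the further lists or else 2 members of a list, the 6 genes nearest to CEMIP, and TERT and MYC. Alternatives were each array left out, only the compared groups, the replicate block, 2 scalings, a trend with robust prior, 2 filters on dim genes, every probe set, no fold minimum and the methods' t-test. Each array is 1 labelled replicate, and p-values measure only the spread between these arrays.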

Additional observations from a re-analysis of the deposited data

How the results depend on the processing

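The CEMIP differences could move only with an array left out or with the 2 scalings, since the other alternatives keep the group means. With 2 arrays a line, leaving 1 out moves a group mean only within the gap between its replicates. Quantile normalization gave -5.14 and median centring -5.17 for BJEL against BJ. In the same order they gave -6.50 and -6.47 between BJELM and BJ, and -1.36 and -1.30 between the derived lines. HAS2 was called in BJELM against BJ and against BJEL under all alternatives except the methods' t-test. That test called 0 members after adjustment and 1 at its own unadjusted threshold in each of these comparisons. With no fold minimum 3 of 5 members were called in BJELM against BJ, as were 28.2% of all genes. For the 40 other hyaluronan genes 3 were called comparing BJEL with BJ, 8 comparing BJELM with BJ and 1 between the derived lines. In this order the counts became 1, 4 and 0 of the 18 genes left after genes below the median were removed. TLR4, VCAN, HAPLN1 and HAPLN3 drop out there, and the share of all kept genes that were called is not given here. With no fold minimum the counts were 8, 15 and 6 of 40, against 17.5%, 28.2% and 10.8% of all genes. The methods' t-test called 0 in each. For TERT that test also gave no call, with adjusted p = 0.445 in BJEL and adjusted p = 0.337 in BJELM, each against BJ. The 0 in these comparisons therefore does not set the hyaluronan genes apart. Unadjusted, the test called 1, 4 and 0 of them, and 465, 880 and 231 of all genes. With 1 array left out the limma counts moved as described above, with no share of all genes beside them. Smaller shifts in BJELM against BJ were 6 with median centring, which lost GFPT1, LAYN and HAPLN3 and added HMMR, 7 with quantile normalization, which lost GFPT1, and 6 with only the compared groups or every probe set, which each lost VCAN (adjusted p = 0.050002 and adjusted p = 0.0625) and HAPLN1 (0.0768 and 0.0934). HAPLN1 was also absent, leaving 7, among genes with a group mean of 6 or more. In BJEL against BJ the count was 4 with quantile normalization, which added MMP14. It was also 4 with median centring, the trend or the replicate block, which each added HAPLN1. It was 2 with every probe set, which lost VCAN (adjusted p = 0.0649). Over all genes, quantile normalization called 763 higher and 869 lower in BJELM against BJ, and 494 and 458 in BJEL against BJ. Median centring called 833 higher and 812 lower in BJELM against BJ, and 547 and 425 in BJEL against BJ.

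Directions that turned were all of differences that had not been called. With quantile normalization, PKHD1 was 0.015 and HEXA -0.017 in BJEL against BJ. With median centring, PKHD1 was 0.033 and GUSB 0.041 in BJELM against BJ, and PKHD1 was 0.034 and SPAM1 0.026 in BJELM against BJEL. With 1 array left out, BJEL against BJ ranged from -0.17 to 0.089 for CD44, -0.077 to 0.076 for PKHD1, -0.075 to 0.0015 for SPAM1 and -0.13 to 0.25 for HEXA. BJELM against BJ ranged from -0.48 to 0.039 for HAS3, -0.028 to 0.012 for PKHD1, -0.15 to 0.15 for GUSB and -0.63 to 0.036 for MYC. BJELM against BJEL ranged from -0.0019 to 0.093 for HAS3, -0.26 to 0.0048 for CD44, -0.011 to 0.13 for HAPLN1, -0.33 to 0.14 for HAPLN3, -0.084 to 0.069 for PKHD1 and -0.037 to 0.0056 for SPAM1. The cause was not tested.

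Arrays with the same replicate number share only that number in the labels, though their deviations from the group means correlated across genes at 0.448 to 0.553. With the replicate block, 993, 1644 and 544 genes were called against 954, 1619 and 494 without it. The block added HAPLN1 in BJEL against BJ (-1.36, adjusted p = 0.00735), and HAS2 there had adjusted p = 0.00613 at 0.48, still under the fold minimum. It changed no other call among the genes named here.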
